A study of Sus scrofa with 30 samples.

Results

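A set of 23 reference transcripts was listed at 0 in the counted samples of peak lactation (PL) of the sow mammary gland and was present in every counted sample of the other 4 stages. The rule took transcripts with a RefSeq mRNA identifier (NM_ or XM_) that were at 0 in all 3 counted PL samples and at 1 FPKM or more in each of the 12 counted samples outside PL, and left out 2 named transcripts, one of PABPC1 and one of UNG. It kept 23 of the 61773 transcripts in the table, of which 29303 had such an identifier. The 23 belong to 22 genes, since VRK1 has 2 of them, and the genes lie on 13 chromosomes, with 1 gene not placed. FPKM, the unit the authors give, is a level per length of transcript and per depth of the library. The PL values chose the members, so every PL value of a member below is a description and carries no test.

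RNA was taken from mammary parenchyma of multiparous half-sibling sows of a Danish Landrace and Yorkshire cross, 6 sows at each of 5 stages, with no treatment. Mid-gestation (MG) was day 70 and late gestation (LG) day 110 of pregnancy, early lactation (EL) was day 2 and PL day 10 after farrowing, and early involution (W2) was day 2 after weaning. Stages follow the sample titles. The stage entry in the sample records reads Early Lactation for the MG titles and Mid-Gestation for the EL titles, and the rule treats both alike. Luminal epithelial markers summed to 34294 to 59977 FPKM under the EL titles and to 6463 to 18265 under the MG titles. That list includes the milk protein gene CSN2. Each result below that sets MG or EL apart rests on the titles. Within each stage 3 samples were near-identical, with a median difference between pairs of at most 1.85%, against 19.6 to 59.8% between the other samples. The average of these 3 and the average of the other 3 also lay close, with a median difference of at most 0.741%, so only the other 3 were counted (MG 1, 3 and 6, LG 1, 3 and 4, EL 3, 4 and 6, PL 2, 3 and 6, W2 2, 3 and 6). Values in each sample add up to 997480 to 998888 in the counted samples, a total close to that of TPM values, and the reads behind a value are not in the table, so the depth of a single value is unknown and precision rests on the spread between sows. Bulk tissue cannot tell fewer cells of a type from less RNA per cell.

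Mammary epithelium multiplies during gestation, secretes milk during lactation and dies back after weaning. Dividing cells assemble kinetochores, protein bridges on each chromosome that catch the microtubules of the spindle, and such genes are known to be transcribed mainly in cells that are about to divide. Many genes give rise to several transcripts by alternative promoters, splicing and ends. The loss of a single transcript from the table can therefore leave the gene present through another one. The sum over all reference transcripts of the gene, non-coding ones included, tells these cases apart.

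The members were low to moderately expressed outside PL. Their means over the 12 samples ran from 1.80 FPKM for CUNH9orf116 to 16.7 FPKM for COL5A3, with a median of 6.75 FPKM, while the 8594 reference transcripts at 1 FPKM or more in all 12 samples had a median of 12.7 FPKM. Of these 8594, 7769 were above 0 in all 3 counted PL samples, 663 were at 0 in 1 of them, 137 in 2 and 25 in all 3, which with the 2 transcripts left out gives the 23. With MG, LG, EL or W2 in the place of PL the same rule found 0 transcripts among 7141 to 7292 that met the floor elsewhere. PL 2 and PL 6, but not PL 3, also held more zeros over the whole set of reference transcripts than any of the other 12 samples. PL 2, 3 and 6 had 11797, 7466 and 9110 reference transcripts at 0, against 5621 to 8364 in the other 12 samples, and the part of this in the result was not tested. By the paper's counts of mapped reads, PL 6 had the fewest of the counted samples. PL 2 and PL 3 lay within the range of the other 12, and the part of library depth was not tested. The set also rests on the PL libraries counted. Leaving out PL 2, PL 3 or PL 6 gave 36, 115 and 55 transcripts, and with all 6 samples per stage 3 members remained, CENPP, OOEP and VRK1 XM_021098129.1.

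**Figure D1:**
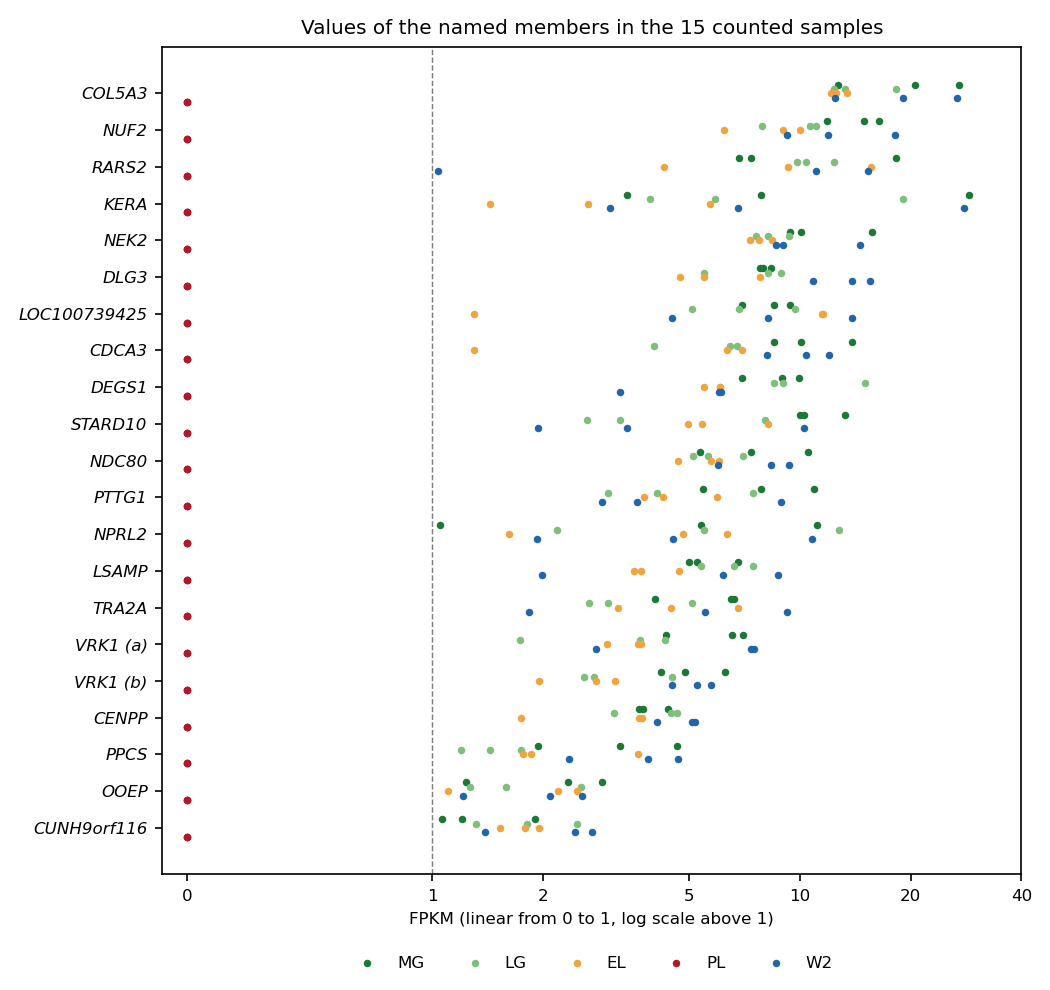
FPKM of the members named in the text (rows, highest mean at the top) in the 15 counted samples, one point per sample, coloured by stage; the axis is linear from 0 to 1 and logarithmic above, the dashed line is the floor of 1 FPKM, and VRK1 (a) and (b) are XM_021098129.1 and NM_001243688.1. All PL points sit at 0 and the other stages overlap in most rows, from 1.04 FPKM for RARS2 in a W2 sample up to 28.7 FPKM for KERA in an MG sample.

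Several members came from genes of chromosome segregation and cell division, by roles assigned after the members were known. These genes included NDC80, NUF2, CENPP, NEK2, CDCA3, PTTG1 and VRK1 with both its members. The share of such genes among all genes was not counted, so nothing is read from their number. NDC80 and NUF2 pair in the Ndc80 complex, the part of the kinetochore that binds microtubules. The NDC80 member (XM_013999249.2, gene at chr6:104000794-104055785) was at 7.38, 10.5 and 5.35 FPKM in MG, 5.12, 5.63 and 7.00 in LG, 5.72, 6.02 and 4.66 in EL, and 5.97, 8.33 and 9.35 in W2. The NUF2 member (XM_005655379.3, gene at chr4:87162873-87194193) was at 11.9, 15.0 and 16.5 FPKM in MG, 7.88, 10.7 and 11.05 in LG, 9.03, 9.99 and 6.23 in EL, and 9.21, 11.9 and 18.1 in W2. NDC80 overlapped across the 4 stages, while the NUF2 samples of MG lay above those of LG and EL, and both were listed at 0 in PL 2, 3 and 6.

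The NUF2 gene was not at 0 in PL, because a second transcript of the gene was present there. NUF2 XM_005655380.3 was at 2.18, 2.45 and 3.22 FPKM in PL, was at 0 in 9 of the other 12 samples and reached at most 0.699 FPKM among them. The PL samples lay above all 12. The NUF2 sum over both transcripts was 2.61 ± 0.540 FPKM (SD, n = 3) in PL, or 22.7% of the mean of the other stages, and all 3 PL sums lay below all 12 others. NDC80 showed a related picture, with its sum at 12.3% of the other stages and carried in PL by XM_021096139.1 alone at 1.30, 0.913 and 0.486 FPKM. That second NDC80 transcript also reached 4.39 FPKM in MG 6, so PL and the other samples overlapped.

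The remaining subunits of the Ndc80 complex, chosen once the members were known, were measured by gene sums. Like the partner genes of other members below, they were added after values were seen, so their p-values are descriptive. SPC25 fell in PL to 3.31, 4.96 and 2.90 FPKM from 5.87 to 11.2 FPKM elsewhere, a log2 difference of -1.10 (SE 0.17, adjusted p = 0.00042, limma over all genes). With median-ratio scaling the SPC25 difference was -0.59, under the fold threshold of 1, and without PL 6 it was -0.96. SPC24 was at 2.04, 3.27 and 1.77 FPKM in PL and between 0 and 13.3 FPKM elsewhere, with 7 of the 12 at 0. Its mean was 2.36 FPKM in PL and 2.90 elsewhere, while the mean of its log2 values was higher in PL by 0.97 (SE 0.91, adjusted p = 0.42, limma), which did not pass.

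NEK2, a kinase that loosens the link between centrosomes before mitosis, had the same pattern as NUF2. Its member (XM_003130413.3, gene at chr9:131547044-131560527) was at 10.1, 9.42 and 15.8 FPKM in MG, 8.18, 7.61 and 9.37 in LG, 8.41, 7.72 and 7.34 in EL, and 9.02, 8.59 and 14.6 in W2. The MG samples lay above those of LG and EL, and the W2 samples above those of EL. The other NEK2 transcript, XM_021063863.1, was at 1.68, 1.48 and 0.478 FPKM in PL and at most 0.221 FPKM in the other 12 samples. Its PL samples lay above all 12, yet the NEK2 sum in PL was 12.5% of the other stages and below all 12.

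PTTG1 encodes securin, which holds the protease separase inactive until chromosomes part. The PTTG1 member (XM_003134092.6, gene at chr16:63104698-63112382) was at 7.84, 5.46 and 10.9 FPKM in MG, 4.08, 3.01 and 7.44 in LG, 3.76, 5.96 and 4.23 in EL, and 3.60, 8.90 and 2.89 in W2. The table held 6 other PTTG1 transcripts. The PTTG1 sum in PL was 1.09 ± 0.355 FPKM (SD, n = 3), 9.94% of the other stages, and the sum of the other transcripts also lay below all 12 samples. The gene for separase itself, ESPL1, was added after values were seen. It fell in PL to 0.376, 0.354 and 0.162 FPKM from 1.40 to 3.26 FPKM (log2 difference -1.75, SE 0.18, adjusted p = 4.6e-05, limma).

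VRK1, a nuclear kinase that phosphorylates histone H3 and the chromatin protein BANF1, was the gene with 2 members. XM_021098129.1 was at 4.34, 7.02 and 6.54 FPKM in MG, 1.74, 3.67 and 4.30 in LG, 3.63, 2.99 and 3.69 in EL, and 2.79, 7.37 and 7.49 in W2. NM_001243688.1 was at 4.20, 4.88 and 6.25 FPKM in MG, 4.50, 2.59 and 2.76 in LG, 3.15, 1.95 and 2.80 in EL, and 4.49, 5.72 and 5.25 in W2. Together they held nearly all of the VRK1 sum outside PL, 52.6% and 46.0%. In PL the sum was carried by XM_021098130.1 at 1.62 and 1.59 FPKM in PL 2 and PL 3, and by a non-coding transcript at 1.56 FPKM in PL 6. The VRK1 sums of 1.56 to 1.62 FPKM in PL were 18.0% of the other stages and below all 12. BANF1 was at 70.1 to 138 FPKM in PL and 100.9 to 179 elsewhere and did not pass the test (log2 difference -0.40, adjusted p = 0.092, limma).

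CDCA3, which promotes entry into mitosis, had its member (XM_001928347.4, gene at chr5:63858905-63861902) at 8.50, 10.1 and 13.8 FPKM in MG, 4.02, 6.74 and 6.46 in LG, 6.32, 6.95 and 1.30 in EL, and 8.13, 10.4 and 12.0 in W2. EL 6 stood far below the other 11 samples. A second transcript, XM_013987400.2, remained in PL at 1.64, 1.00 and 0.474 FPKM, within its range of 0.122 to 2.97 FPKM elsewhere. The CDCA3 sum in PL was 11.6% of the other stages, and the highest PL sum lay above 1 of the 12 others.

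CENPP belongs to the inner kinetochore with CENPO, CENPQ and CENPU. Its member (NM_001315813.1) was between 1.75 and 5.20 FPKM outside PL, and its W2 samples, at 4.10, 5.20 and 5.08 FPKM, lay above its EL samples, at 3.71, 3.66 and 1.75 FPKM. The CENPP sum in PL was 19.5% of the other stages and consisted of a non-coding transcript at 1.28, 0.815 and 0.861 FPKM. These 3 genes were added after values were seen. CENPU fell in PL to 1.38, 1.03 and 1.01 FPKM from 3.91 to 8.15 FPKM (log2 difference -1.96, SE 0.20, adjusted p = 3.6e-05, limma). CENPQ (log2 difference -0.77, adjusted p = 0.069) and CENPO (-0.59, adjusted p = 0.43) did not pass.

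**Figure D2:**
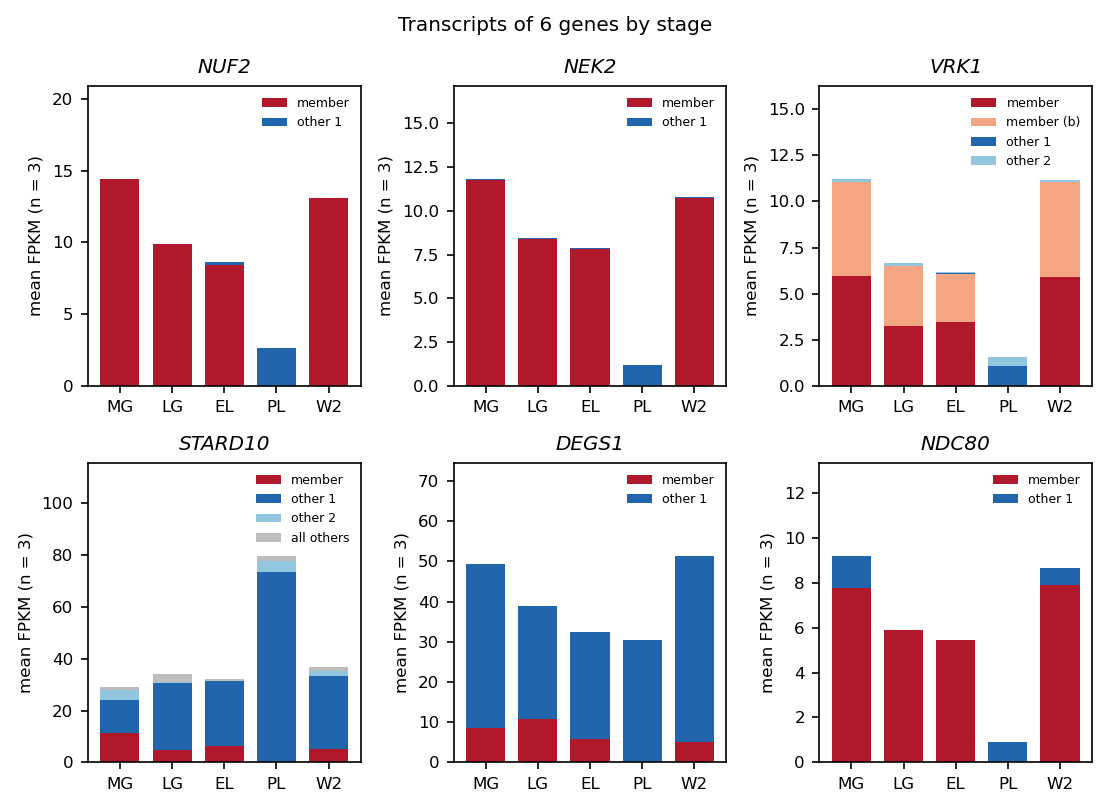
Mean FPKM of each reference transcript of NUF2, NEK2, VRK1, STARD10, DEGS1 and NDC80, stacked by stage (3 counted samples per stage, no error bars); red and orange are the members, blue shades the other transcripts, grey the rest pooled, and the vertical scales differ. In PL the members are missing, short blue bars remain for NUF2 (2.61 FPKM) and NEK2 (1.214 FPKM), DEGS1 stays near its level in EL, and STARD10 rises to 79.8 FPKM.

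KERA and OOEP were among the 3 genes with a single reference transcript in the table, so for them the gene sum was also 0 in PL. Keratocan, the product of KERA, is a proteoglycan of collagen-rich matrix. KERA (XM_001927128.5, gene at chr5:91794317-91802362) spread most among the members, by 20.0 times from 1.44 FPKM in EL 4 to 28.7 in MG 3, with high values also in W2 3 at 28.0 and LG 4 at 19.0. OOEP, a gene known from the oocyte, stayed low outside PL at 1.10 to 2.89 FPKM (NM_001198917.1).

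COL5A3, a chain of type V collagen, had the highest member level. Its member (XM_021081436.1, gene at chr2:68828197-68869914) was at 12.7, 27.1 and 20.6 FPKM in MG, 13.3, 12.4 and 18.3 in LG, 12.6, 13.4 and 12.1 in EL, and 12.5, 26.7 and 19.1 in W2. The COL5A3 sum in PL was 3.84 ± 0.796 FPKM (SD, n = 3), 15.6% of the other stages and below all 12, and 62.0% of it came from a non-coding transcript at 2.43, 0 and 4.71 FPKM. Without PL 6 that share was 35.7%. The other chains of the same collagen, added after values were seen, were measured by gene sums. COL5A2 fell to 18.3 FPKM in PL from a mean of 38.2 FPKM (log2 difference -1.16, SE 0.33, adjusted p = 0.015, limma), a call lost without PL 2 (adjusted p = 0.078), without PL 6 (adjusted p = 0.092) and under median-ratio scaling (adjusted p = 0.18). COL5A1 was at 3.32, 18.2 and 9.72 FPKM in PL and 6.70 to 37.6 elsewhere, with an adjusted p of 0.24. The summed level of 6 fibroblast markers was 472 to 1087 FPKM in PL and 853 to 2632 in the other 12 samples, with none of the 6 at 0 in PL, and its part in the KERA and COL5A3 values was not tested.

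There were 4 genes with at least 50% of their sum in PL, the threshold used here for a gene that was kept. STARD10, a lipid-transfer protein for phospholipids, was the one gene whose sum was higher in PL as deposited. Its member (NM_001243805.1, gene at chr9:7302811-7346703) was at 10.3, 10.0 and 13.3 FPKM in MG, 3.25, 8.04 and 2.64 in LG, 5.43, 8.20 and 4.96 in EL, and 1.95, 3.39 and 10.2 in W2. STARD10 XM_021102009.1 was at 33.5, 86.8 and 100.01 FPKM in PL and between 9.71 and 38.9 FPKM elsewhere, and it made up 92.1% of the PL sum. PL 3 and PL 6 exceeded all 12 other samples and PL 2 did not. The STARD10 sum in PL was 79.8 ± 40.6 FPKM (SD, n = 3), 242% of the other stages.

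DEGS1, the desaturase that turns dihydroceramide into ceramide, kept 70.9% of its sum as deposited and stood at 105% after median-ratio scaling. The member (XM_005653768.3, gene at chr10:12529021-12568447) was at 9.95, 8.94 and 6.95 FPKM in MG, 8.98, 8.48 and 15.0 in LG, 6.08, 5.50 and 6.05 in EL, and 6.10, 6.02 and 3.24 in W2, and held 17.7% of the gene there. DEGS1 NM_001244121.1 was at 23.3, 37.0 and 31.2 FPKM in PL and 22.5 to 59.8 FPKM elsewhere, so the major transcript overlapped across stages.

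LOC100739425 kept 57.5% and NPRL2, a subunit of the GATOR1 complex that restrains growth signalling through mTORC1, kept 50.1%. LOC100739425 had 10 transcripts, and its PL sum of 11.7 ± 2.64 FPKM (SD, n = 3) came mainly from XM_021097236.1 at 4.29, 11.4 and 6.47 FPKM. NPRL2 in PL was XM_003132226.4 alone, at 25.2, 1.08 and 8.69 FPKM, so PL 2 lay far above PL 3. Without PL 2 NPRL2 was at 21.0% of the other stages, under the threshold for a kept gene. The NPRL2 member (XM_005669600.1) was itself spread from 1.05 FPKM in MG 3 to 12.8 FPKM in LG 3.

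The remaining genes were reduced without being lost. RARS2, the arginine tRNA synthetase of mitochondria, retained 41.4%, with 2.35 to 9.13 FPKM in PL, and 53.8% without PL 3. Its member spread by 17.6 times, from 1.04 FPKM in W2 2 to 18.3 FPKM in MG 3. TRA2A, a splicing regulator, retained 44.0%, but its PL sums were 6.67 FPKM at the lowest and 43.1 at the highest, the last in PL 3, where XM_005656690.3 alone was at 35.7 FPKM against 0 in PL 2 and PL 6. Without PL 3 the TRA2A share was 16.5%, and it was 58.4% without PL 2 and 57.2% without PL 6.

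LSAMP, an adhesion protein of the immunoglobulin superfamily, had the lowest share, 9.50%, with its member (NM_001244697.1) at 1.99 to 8.74 FPKM outside PL and one other transcript above 0 in PL, at 0.2501, 0.474 and 1.16 FPKM. Without PL 6 its share was 5.48%. PPCS, an enzyme of coenzyme A synthesis, retained 16.9%, with sums of 0.776, 1.95 and 0.591 FPKM in PL, and 10.4% without PL 3. CUNH9orf116 retained 49.9%, and like NUF2 and NEK2 it had another transcript, XM_013993957.2, above all 12 samples in PL, at 0.832, 0.994 and 0.981 FPKM against at most 0.487. DLG3, a scaffold protein of cell junctions, retained 21.1% of its sum and its member is described by stage below.

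By gene, 3 were single transcripts at 0, 4 were kept and 15 were reduced, and none of the 19 genes with other transcripts was at 0 in all 3 PL samples. These sums include non-coding reference transcripts. In PL the CENPP sum was a non-coding transcript alone, so no mRNA transcript of CENPP was above 0 in the 3 PL samples. Median-ratio scaling sets the libraries to a common level over the 2698 transcripts at 10 FPKM or more in every counted sample. After this scaling, RARS2 (64.5%), TRA2A (60.6%) and CUNH9orf116 (73.3%) also counted as kept. As deposited, the reduced genes had a median of 18.0% of the other stages, from 9.50 to 49.9%. Among all 7261 genes with a reference transcript at 1 FPKM or more in all 12 samples, the median was 66.1%, and 20.8% of genes were under 50%. The 3 PL sums lay below all 12 others in 15 of the 22 genes, while 22.2% of the 7261 genes met the same condition. The members were chosen on this contrast, so nothing is read from the difference. Genes with members had a median of 3 reference transcripts in the table against 1 for the 7261, and 13.6% of them had a single transcript against 51.5%.

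**Figure D3:**
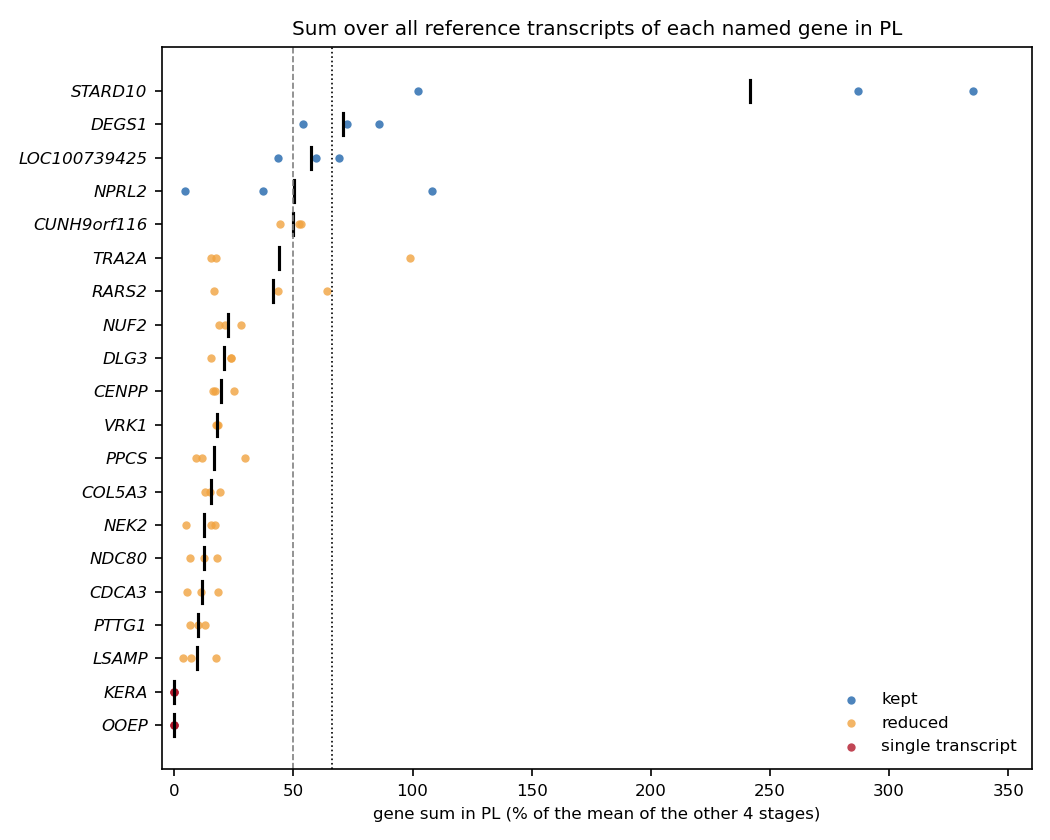
Sum over all reference transcripts of each gene named in the text in the 3 counted PL samples (points) and their mean (black tick), as a percentage of the mean of the other 4 stages; the dashed line is 50% and the dotted line the median of 7261 genes, 66.1%. STARD10 stands at 242%, DEGS1, LOC100739425 and NPRL2 at 50% or more, the reduced genes between 9.50 and 49.9%, and KERA and OOEP at 0.

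How much of each gene the member carried varied widely. Among the 20 members with other transcripts, 12 held over 50% of the gene's sum outside PL, 4 held over 90% and 4 held under 25%. NEK2 (99.4%), NUF2 (99.4%), CUNH9orf116 (96.1%) and NDC80 (92.3%) were nearly the whole gene, and TRA2A (11.3%), DEGS1 (17.7%), STARD10 (20.6%) and NPRL2 (24.4%) were minor forms. StringTie divides reads between the transcripts of a gene, so values of transcripts of one gene are not independent measurements.

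Between MG, LG, EL and W2, which the rule used only through its floor, no member was called. The test was limma on log2(FPKM + 0.5) over all 61773 transcripts, and a call needed an adjusted p under 0.05 with a log2 fold change of 2 or more in size. This gave 0 of 23 members in each of the 6 comparisons, where the percentage of all transcripts called was 0.0243 for LG against MG, 0.0583 for EL against MG, 0.0453 for W2 against MG, 0.0308 for EL against LG, 0.0389 for W2 against LG and 0.189 for W2 against EL. At an unadjusted p under 0.05, 20 of the 138 member tests passed, 4 in LG against MG, 3 in EL against MG, 4 in W2 against MG, 1 in EL against LG, 4 in W2 against LG and 4 in W2 against EL. The shares of all transcripts at that level were 5.59, 11.4, 5.24, 6.95, 7.91 and 15.7%. These counts and shares are for values as deposited. With median-ratio scaling 10 of the 138 member tests passed at that level, and 10 with quantile normalization. The shares of all transcripts were not computed for these settings.

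DLG3 had the lowest adjusted p of these tests. Its member (XM_003484123.4, gene at chrX:56471941-56531481) was at 7.93, 7.81 and 8.33 FPKM in MG, 8.18, 8.88 and 5.49 in LG, 7.78, 4.72 and 5.49 in EL, and 13.8, 15.5 and 10.8 in W2. As deposited, the W2 samples lay above the other 9. W2 exceeded EL by 1.11 on the log2 scale (SE 0.23, adjusted p = 0.066, limma), which did not pass. With median-ratio scaling the difference was 0.71 (adjusted p = 0.36, limma).

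As deposited, the other members with an unadjusted p under 0.05 in more than one comparison included VRK1 NM_001243688.1, DEGS1, STARD10, PPCS and CDCA3. VRK1 NM_001243688.1 was at 5.11 ± 1.04 FPKM (SD, n = 3) in MG and 5.15 ± 0.619 in W2, against 3.29 ± 1.06 in LG and 2.63 ± 0.615 in EL. CDCA3 also had its higher means in these stages, with 10.8 ± 2.74 FPKM in MG and 10.2 ± 1.95 in W2 against 5.74 ± 1.49 in LG and 4.86 ± 3.10 in EL (SD, n = 3). STARD10 had its highest mean in MG, at 11.2 ± 1.82 FPKM, and DEGS1 in LG at 10.8 ± 3.64 FPKM (SD, n = 3).

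The lowest of the 4 stage means was in EL for 13 of the 23 members, in LG for 7, in W2 for 2 and in MG for 1. EL was lowest for 64.6% of the 8594 transcripts at the floor. The highest mean was in MG for 12 members, W2 for 7 and LG for 4, against 26.5% of the 8594 in MG, 54.4% in W2 and 11.4% in LG. The median log2 difference of the members was -0.40 in LG against MG, where that of the 8594 was -0.15, and -0.50 in EL against MG, where it was -0.36. In W2 against EL it was 0.42 against 0.45.

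The rule's threshold cut through a run of close values. The 5 members just inside the floor had their lowest value at 1.04 FPKM (RARS2), 1.05 (NPRL2), 1.06 (CUNH9orf116), 1.10 (OOEP) and 1.20 (PPCS). The 5 transcripts just outside it, also at 0 in PL, reached 0.979 FPKM (FGR), 0.833 (GNE), 0.825 (FILIP1), 0.766 (CCDC181) and 0.707 (HPD). On the PL side the transcripts close to the limit included KIF20A, with at most 0.179 FPKM in PL, TBC1D31 at 0.179, PCDH20 at 0.277 and CKAP2L at 0.353.

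Other genes with the roles of the members were compared by gene sums, PL against the mean of the other 4 stages, with the members' genes left out. The lists were chosen with earlier results of these data known, so their counts and p-values are descriptive. Of 37 genes of cell division and DNA replication, 26 fell in PL and 0 rose (limma on log2 of the gene sum + 0.5, adjusted p under 0.05 and absolute log2 difference of at least 1). Over all 14644 genes 14.3% were called lower and 2.03% higher. The list's median difference was -1.84 against -0.50 for all genes. TOP2A, the topoisomerase that untangles chromosomes, was at 2.98, 2.41 and 1.18 FPKM in PL and 10.3 to 29.5 elsewhere (log2 difference -2.81, SE 0.23, adjusted p = 1.3e-05). CCNB1, the cyclin that drives entry into mitosis, was at 3.52, 2.73 and 1.04 FPKM against 12.1 to 32.3 (log2 difference -2.70, SE 0.25, adjusted p = 2.1e-05).

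The partner kinase CDK1 was at 0, 0.604 and 0 FPKM in PL and 2.22 to 5.23 elsewhere, and the spindle checkpoint kinase BUB1 was at 0 in all 3 PL samples, but also at 0 in at least 1 of the other 12. The PL samples of TOP2A, CCNB1 and CDK1 lay below all others. The replication genes PCNA and MCM7 fell as well, PCNA from a mean of 81.4 to 25.7 FPKM (log2 difference -1.58, adjusted p = 6e-05) and MCM7 from 49.98 to 17.4 FPKM (-1.47, adjusted p = 5.4e-05). After median-ratio scaling PCNA was at -1.03, and MCM7 at -0.92 was under the fold threshold of 1. In that setting MCM2, MCM3 and MCM6 passed, while MCM4 (-1.18, adjusted p = 0.24, limma) and MCM5 (1.23, adjusted p = 0.16, limma) did not. Of the 11 that did not pass, MKI67 had 0.729 FPKM in PL against 1.25 (log2 difference -0.41, adjusted p = 0.40, and 0.11 with quantile normalization), and CDK2 was at 5.56 against 5.57 FPKM.

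Scaling changed the calls over all genes as well as those in the lists. Median-ratio scaling moved the median of all genes from -0.50 to -0.06, with 4.56% of them then called lower and 4.24% higher, and left 22 of the 37 cell division genes lower and 0 higher. Quantile normalization called 4.15% of all genes lower and 4.64% higher. In the list of RNA splicing and hnRNP proteins, which holds the close relative TRA2B of TRA2A, 16 of 58 genes fell, 2 did after median-ratio scaling, and 8 did without PL 2. TRA2B was at 61.6 FPKM in PL against 131 (log2 difference -1.07, adjusted p = 6e-05, and -0.51 after scaling). Of the genes of DNA repair 6 of 26 fell, and 2 after scaling.

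The calls of the remaining lists stand beside 14.3% of all genes lower and 2.03% higher as deposited, and 4.56% and 4.24% after scaling. As deposited, only the translation list held a higher share of lower genes than all genes did. Of the genes of translation and poly(A) binding 6 of 26 fell (1 after scaling), of chromatin and transcription regulators 5 of 39 (2), of actin cytoskeleton and cell adhesion 2 of 38 (0, with 3 then higher), of growth factor and kinase signalling 4 of 48 with 1 higher (1 and 1), of ubiquitin and proteasome 1 of 36 (0), and of membrane traffic 0 of 40 with 1 higher (0 and 1). Of 7 milk protein genes, 5 rose in both settings and 0 fell, with CSN2, the gene of beta-casein, at 98647, 38297 and 17661 FPKM in PL. Under quantile normalization 4 rose, and CSN2 did not pass (log2 difference 0.47, adjusted p = 0.51, limma, against 1.77 and 0.014 as deposited).

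Leaving out single libraries moved several of these small counts. Without PL 2, chromatin genes had 3 lower, actin and adhesion genes 0 lower and 3 higher, ubiquitin genes 1 lower and 1 higher, translation genes 4 lower, and DNA repair genes 4 lower. Without PL 3, actin and adhesion genes had 5 lower and 1 higher, ubiquitin genes 3 lower and 1 higher, membrane traffic genes 1 lower, and DNA repair genes 1 higher. Without PL 6, chromatin genes had 8 lower, actin and adhesion genes 3 lower and 1 higher, membrane traffic genes 2 lower, and kinase signalling genes 0 higher. Calls over all 14644 genes moved too, from 2091 lower to 1209 without PL 2, 2808 without PL 3 and 2514 without PL 6. Outside PL, chromatin genes had 2 higher without W2 3, actin and adhesion genes 4 lower without W2 2, ubiquitin genes 0 lower without EL 4, DNA repair genes 1 higher without MG 1, and cell division genes 1 higher without EL 3.

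**Figure D4:**
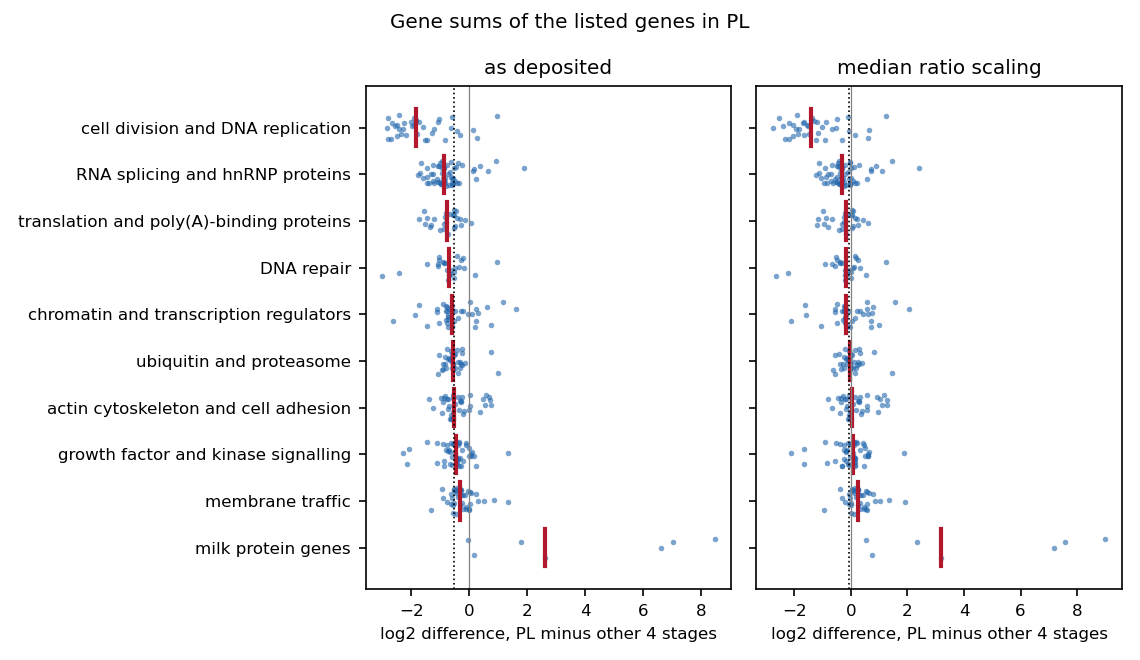
Log2 difference of gene sums, PL minus the mean of the other 4 stages, for every gene of 10 lists (points) with the list's median (red bar) and the median of 14644 genes (dotted line), as deposited on the left and after median-ratio scaling on the right. The cell division list lies furthest left in both panels, with medians of -1.84 and -1.40, and the milk protein list furthest right.

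Summed markers of other cell types had PL ranges that overlapped the other 12 samples. Single markers did not all overlap. In PL, 1 adipocyte, 1 fibroblast and 1 endothelial marker lay below all 12, and 1 adipocyte marker lay above all 12. Luminal epithelial markers summed to 19174 to 99418 FPKM in PL and 2934 to 59977 in the other 12 samples, and T cell markers to 7.17 to 18.4 FPKM against 15.9 to 28.9. CSN2 is among the luminal markers and made up most of the lowest and the highest of their PL sums. Macrophage markers were at 20.8 to 303 FPKM in PL against 16.7 to 49.6, myoepithelial markers at 756 to 1889 against 863 to 1676, endothelial markers at 71.2 to 118 against 95.9 to 176, and adipocyte markers at 306 to 874 against 578 to 1394. B and plasma cell markers were at 721 to 907 FPKM in PL against 387 to 2883, and erythrocyte markers at 47.7 to 94.2 against 38.5 to 287. No marker in the table was at 0 in all 3 PL samples, KRT14, ADIPOQ, PLIN1, CDH5, CD68 and MS4A1 were not among the transcripts used here, and the part of these differences in the members' values was not tested.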

How the data were processed

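Libraries were made with a TruSeq RNA kit that does not mark strand. Per the submitters' processing notes and the study's methods, the authors used FastQC for read quality, Trimmomatic for trimming and HISAT2 for alignment to Sscrofa11.1. StringTie gave the transcripts and their levels. The deposited table used here holds what the authors call FPKM, filtered at 0.5, and their raw count matrix was not analysed here. Whether it holds their RUVs correction is not given in the sources used here.

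Identifiers were matched to RefSeq genes of the same build, 32396 transcripts of 14644 genes. Assembled transcripts were not placed, so gene sums cover reference transcripts only, both mRNA and non-coding. Tests used limma 3.58.1 in R 4.3.3 with trended variance and Benjamini-Hochberg adjustment on log2(value + 0.5). PL was left out of the fit between the other 4 stages because the rule fixes its spread. With 3 against 3 samples an exact permutation test cannot go under 0.10, so none was used. On simulated data with known changes, 52 of 100 transcripts changed by 2 on the log2 scale between EL and MG were recovered and 56 of 100 changed by 3, and of gene sums in PL 85 and 92 of 100. Recovery meant an adjusted p under 0.05 alone, without the fold threshold. Changes were planted only where the mean log2 value exceeded 2. The simulation therefore does not give the recovery for the full call or for members under that level.

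Members and gene lists were chosen with earlier results of these data known. Named members were the 12 highest, those of single-transcript genes, those with the 3 highest and 3 lowest gene sums in PL, those next to the floor, those in gene lists and genes with 2 members. Some items the rule names are not reported here. CENPP and the partner genes were added after values were seen. Alternatives changed the floor, the scaling, the pseudocount, the filter, the samples and the thresholds. Sequences were not analysed here.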

Additional observations from a re-analysis of the deposited data

Results flagged for a closer look

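The near-identical PL samples 1, 4 and 5, which no comparison uses, were not all at 0 for the members. Of their 69 member values 34 were above 0, up to 1.06 FPKM for TRA2A in PL 1, and 20 of the 23 members were above 0 in at least one of them. Only CENPP, OOEP and VRK1 XM_021098129.1 were at 0 in all 6 PL samples. The table also holds 13 assembled transcripts, placed in no gene here, with the same pattern over the 15 counted samples. Their means outside PL ran from 1.70 to 20.0 FPKM. Stages had 3 counted samples, so no sample was examined as an outlier.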

How the results depend on the processing

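The number of members depended on the rule. It was 39 with a floor of 0.5 FPKM, 8 with a floor of 2, 41 with up to 0.5 allowed in PL, and 3 with all 6 samples per stage. Asking for 0 in the near-identical PL samples as well, an alternative chosen after seeing the data, also gave 3. Leaving out single samples gave 23 to 115, with 36 without PL 2, 115 without PL 3 and 55 without PL 6. Genes kept in PL numbered 7 with median-ratio scaling, 7 with quantile normalization, 8 with a threshold of 25%, 1 with a threshold of 75%, and 5 whichever PL sample was left out (15 members reduced then). CUNH9orf116 and TRA2A entered and NPRL2 left without PL 2, RARS2 entered without PL 3, and TRA2A without PL 6. Calls of members between the 4 stages were 0 under every alternative run, the replicate block included (lowest adjusted p 0.295). DLG3 in W2 against EL had adjusted p 2.6e-07 with all 6 samples, 0.0018 with near-identical samples counted once and 0.032 without EL 3 (limma). Each had a log2 difference under 2. Near-identical samples lie close to the mean of the counted ones, so the first 2 values understate the spread between sows. The DLG3 adjusted p was 0.36 with median-ratio scaling (log2 difference 0.71), 0.37 with quantile normalization (0.68) and 0.23 with all 5 stages in the fit. Over all lists 66 genes were lower and 7 higher. Lower genes were 20 and higher genes 4 with a threshold of 2, 30 were lower with median-ratio scaling and 33 with quantile normalization, and leaving out single samples gave 47 to 75 lower and 7 to 10 higher. MKI67 turned to 0.11 with quantile normalization. The replicate block left 57 lower and 6 higher genes, and TRA2B and COL5A2 lost their calls, for causes that were not tested. Same-numbered samples did not deviate together (r from -0.07 to 0.09 over 19 pairs, and 0 of 15 samples correlated best with its own number), so the numbers do not pair the sows.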
